A study of Mus musculus with 12 samples.

Results

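The secreted Wnt antagonists examined here are 9 genes: the secreted Frizzled-related proteins Sfrp1, Sfrp2, Sfrp4, Sfrp5 and Frzb, the Dickkopf proteins Dkk1, Dkk2 and Dkk3, and the Wnt inhibitory factor Wif1. Their probe sets were taken by name alone, as those whose only gene symbol in the platform's annotation was 1 of the 9, which gave 17 of the 45101 probe sets on the array. A filter on low mean signal over all 12 arrays left 13 of the 17 (27022 of all probe sets), and each of the 9 genes kept at least 1. The samples were side population cells, the fraction of a dissociated tissue that exports the dye Hoechst, from 2 mouse muscles: EOM, the extraocular muscles that move the eye, and TA, the tibialis anterior of the hind limb. Each group (EOM_SP and TA_SP) held 6 preparations, numbered 0, 1, 2, 3, 5 and 6 in both, with 1 Affymetrix array apiece. Neither group carries a treatment or a genetic change in its labels, and strain, age and sex are not given in the sources used here. The comparison asks how the 2 side populations differ in the inhibitors of Wnt signalling that they transcribe.

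Wnt proteins are secreted signals that bind Frizzled receptors together with the co-receptors Lrp5 and Lrp6, and in the canonical branch they stabilise beta-catenin, which then switches on target genes with Tcf and Lef factors. Secreted antagonists stop this at the cell surface in different ways. The Frizzled-related proteins carry a cysteine-rich domain like that of the receptors and bind Wnt proteins, as does Wif1 through a domain of its own, so that both can blunt canonical and non-canonical signals. Dickkopf proteins instead bind Lrp5 and Lrp6, with Kremen proteins as partners, and act on the canonical branch, while Dkk3 is the divergent member of that family. In skeletal muscle, Wnt signals act on satellite cells and on the connective tissue cells around the fibres.

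Sequences upstream of the start site were found for 6 of the 9 genes in the RefSeq promoter table (build GRCm38.p6), namely Frzb, Sfrp2, Dkk2, Wif1, Dkk1 and Sfrp5. The 250 bases before the start are shown for Sfrp5, Wif1, Sfrp2 and Dkk1. Levels of Sfrp5, Wif1 and Sfrp2 turned out to differ between the muscles with all arrays or with some left out, and Dkk1 is a known target of beta-catenin. Frzb also differed with some arrays left out, and its window, which is not printed, is described below. Capitals mark the 6-base cores bound by Tcf and Lef factors, CTTTGA and CTTTGT, and the TATAAA box, each searched on both strands. The windows are chr19:42202253-42202502 on the minus strand for Sfrp5, chr10:121033754-121034003 on the plus strand for Wif1, chr3:83766071-83766320 on the plus strand for Sfrp2 and chr19:30549497-30549746 on the minus strand for Dkk1.
Sfrp5: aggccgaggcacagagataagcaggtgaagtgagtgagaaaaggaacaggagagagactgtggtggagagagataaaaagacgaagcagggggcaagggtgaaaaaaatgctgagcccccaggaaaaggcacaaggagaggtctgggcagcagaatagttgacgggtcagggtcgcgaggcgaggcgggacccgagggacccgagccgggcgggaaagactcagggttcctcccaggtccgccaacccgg
Wif1: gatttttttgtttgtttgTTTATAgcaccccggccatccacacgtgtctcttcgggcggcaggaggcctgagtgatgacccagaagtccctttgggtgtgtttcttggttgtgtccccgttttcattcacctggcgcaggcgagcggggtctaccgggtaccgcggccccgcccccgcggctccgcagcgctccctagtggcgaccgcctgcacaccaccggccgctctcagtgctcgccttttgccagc
Sfrp2: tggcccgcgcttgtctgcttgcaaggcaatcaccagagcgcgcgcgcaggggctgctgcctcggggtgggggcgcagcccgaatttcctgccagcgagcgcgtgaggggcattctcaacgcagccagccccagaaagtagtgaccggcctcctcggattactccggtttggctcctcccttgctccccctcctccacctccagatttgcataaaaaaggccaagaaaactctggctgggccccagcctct
Dkk1: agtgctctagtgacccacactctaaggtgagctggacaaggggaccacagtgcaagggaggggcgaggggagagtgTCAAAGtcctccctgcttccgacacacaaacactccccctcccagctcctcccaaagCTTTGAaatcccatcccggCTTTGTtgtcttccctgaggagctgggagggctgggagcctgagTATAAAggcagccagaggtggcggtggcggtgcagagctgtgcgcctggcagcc
The Dkk1 window held 3 matches to the Tcf and Lef cores, CTTTGA 2 times and CTTTGT 1 time, besides a TATAAA box. Frzb had 1 CTTTGA and Dkk2 had 1 CTTTGT, while the letters of neither core stand in the windows of Sfrp2, Sfrp5 and Wif1. Among 32851 promoter windows of this length in the table, 27.6% held at least 1 of the 2 cores and 12.4% held TATAAA, which Wif1 and Dkk2 have as well. CpG dinucleotides numbered 21 for Wif1, 16 for both Sfrp2 and Frzb, 13 for Sfrp5, 7 for Dkk2 and 6 for Dkk1, against a median of 6 over the table. The array measured no binding at these places, and a match is a description of the letters only.

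Values are MAS5 signals, a linear brightness per probe set scaled by the authors to 1 trimmed mean per array, and the number of arrays sets their precision. Differences are EOM minus TA on the scale log2(signal + 16), which understates the change of dim genes, and each comes with its moderated standard error (SE) and a p-value from limma adjusted over all 27022 tested probe sets (threshold 0.05). Since the table carries no detection calls, the median signal of each array serves as a gauge of dimness. That median was 31.1 to 43.4 on 9 arrays and higher on EOM 1 (87.2), TA 3 (69.5) and TA 5 (63.1), where the spiked hybridization controls were also brightest and the 3' to 5' signal ratio of beta-actin was 104, 165 and 100.2, respectively, against at most 68.6 elsewhere. The same ratio for Gapdh did not set the 3 arrays apart together, with 9.88 for EOM 1, 17.3 for TA 3 and 34.5 for TA 5, while the others ran from 4.92 to 24.5. Abcg2, the pump that exports Hoechst, was above its array's median on 12 of 12 arrays, at 100.3 to 1014 in EOM and 1705 to 3461 in TA. It was itself called lower in EOM, at -2.23 ± 0.42 (SE, limma adjusted p = 0.00206), which limits how alike the 2 sorted populations can be taken to be.

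Sfrp4, a Frizzled-related protein known from connective tissue and bone, was the antagonist that rose in EOM. Its signal was 741 at the lowest, 3030 at the median and 3691 at the highest of 6 EOM arrays, and 238, 420 and 505 in TA. Every EOM array was above every TA array, and EOM 1 was the lowest of its group. The EOM mean was 2619 ± 1127 and the TA mean 403 ± 90.4 (SD, n = 6 each), which gave a difference of 2.51 ± 0.35 (SE, limma adjusted p = 0.00011), or 5.71-fold. Leaving out each array in turn gave 2.37 to 2.84, past the threshold in 12 of 12 fits. Without EOM 1 the EOM mean was 2995 ± 728 (SD, n = 5).

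Sfrp2, a Wnt-binding relative of Sfrp4, had the next largest positive estimate, with a call that turned on which arrays were kept. Its EOM signal ran from 366 through a median of 681 to 1009, and its TA signal from 127 through 181 to 1512. The value of 1512 is TA 3, and the other TA arrays lay between 127 and 214, below all 6 EOM arrays. With 12 arrays the difference was 1.36 ± 0.46 (SE, limma adjusted p = 0.0831) with a 95% interval of 0.39 to 2.33, and it did not pass. Without TA 3 it passed at 1.87 ± 0.27 (limma adjusted p = 0.000219), with means of 689 ± 212 (SD, n = 6) and 172 ± 33.5 (SD, n = 5). It also passed without EOM 1 (1.52, limma adjusted p = 0.0241) and with TA 3, TA 5 and EOM 1 all removed (2.11, limma adjusted p = 1.27e-06), and missed the threshold with any of the other arrays left out. TA 3 had the highest actin 3' to 5' ratio of the 12 arrays (165) but a Gapdh ratio (17.3) within the range of the others, and the part of RNA quality in its Sfrp2 value was not tested.

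**Figure D1:**
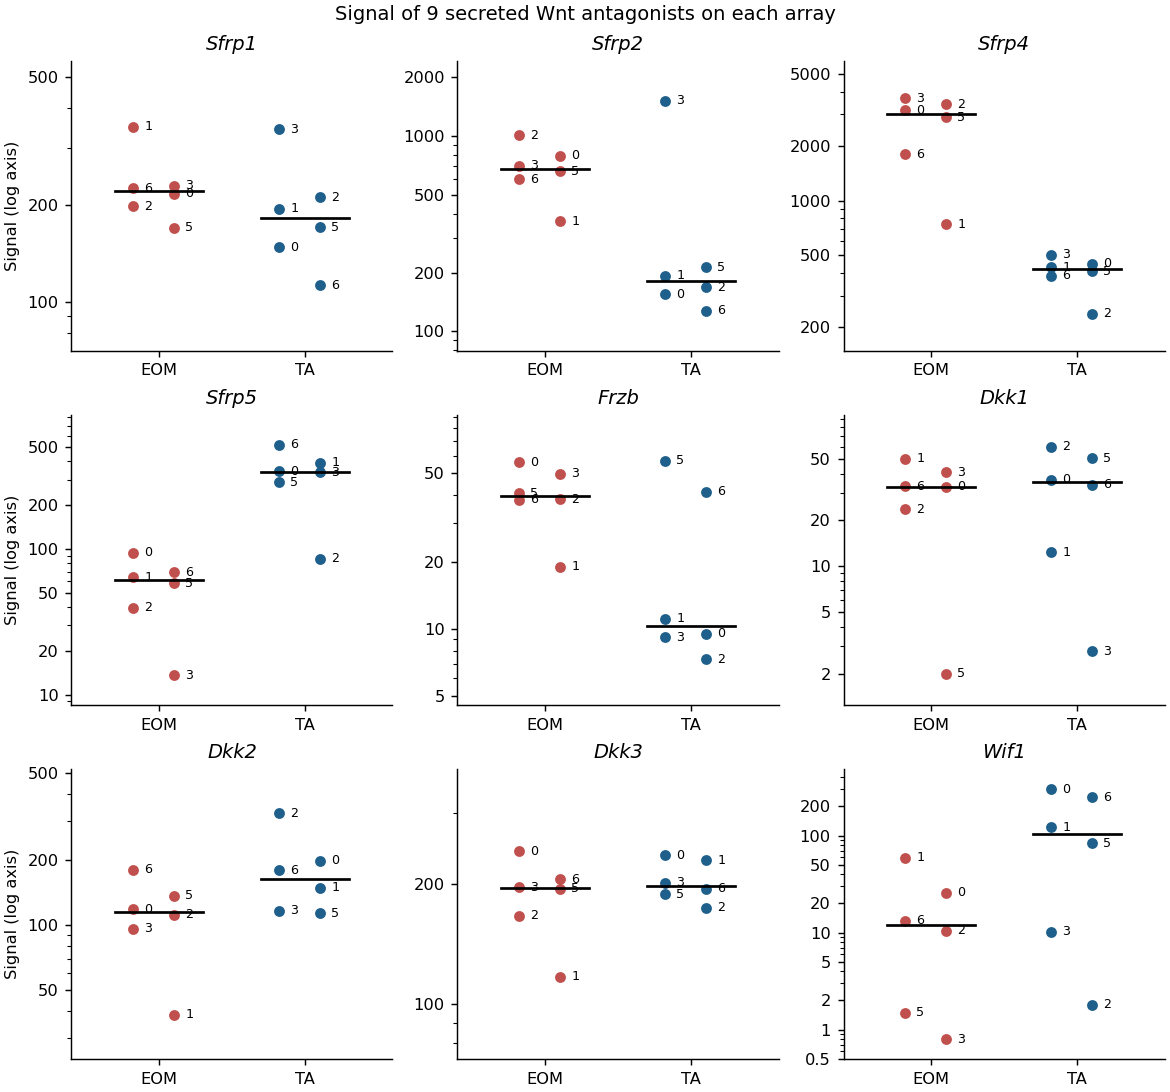
Signal on a log axis (each panel with its own range) for the brightest tested probe set of each antagonist, 1 point per array with its preparation number, for 6 EOM and 6 TA arrays. Black lines are group medians. Sfrp4 separates the groups with EOM above TA, Sfrp2 does so apart from TA 3 at 1512, and Sfrp5 is higher in TA apart from TA 2 at 85.9.

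Sfrp1, another Frizzled-related protein, is read by 5 probe sets that did not tell 1 story. The brightest, 1428136_at, was at 170 to 350 in EOM and 113 to 344 in TA, with overlapping groups and a difference of 0.26 ± 0.28 (SE, limma adjusted p = 0.703, 95% interval -0.32 to 0.84). A second, 1438620_x_at, ran from 57.7 through 122 to 158 in EOM and from 16.1 through 40.1 to 133 in TA. Of its TA arrays, 5 lay below all 6 EOM arrays and TA 3 reached 133, and the difference was 1.06 ± 0.36 (SE, limma adjusted p = 0.0843). The x in its name marks probes that can also match other transcripts. The third, 1448395_at, was at 121 to 283 on 5 EOM arrays, all above the TA arrays (5.6 to 94.7), but at 9.8 on EOM 1. Its difference of 1.08 ± 0.53 (SE, limma adjusted p = 0.279) became 1.58 ± 0.38 without EOM 1 (limma adjusted p = 0.00677). It shrank to 0.75 ± 0.50 without TA 3, the lowest TA array at 5.6 (limma adjusted p = 0.475). Without TA 3 the x probe set passed (1.33, limma adjusted p = 0.0123), and both passed with EOM 1, TA 3 and TA 5 removed (1.33 and 1.21, limma adjusted p = 0.00271 and 0.00969), whereas the brightest stayed at 0.32 (limma adjusted p = 0.374). Taking the mean of the 3 tested probe sets put the gene past the threshold at 0.80 ± 0.19 (SE, limma adjusted p = 0.01). The remaining 2 were dim on most arrays and were not tested, at 1.3 to 142 for 1416594_at and 0.8 to 61.1 for 1460187_at.

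Frzb, the Frizzled-related protein also called Sfrp3 and known from cartilage, was dim in both muscles. Its brighter probe set ran from 19.0 through 39.5 to 56.2 in EOM and from 7.3 through 10.3 to 57.1 in TA, above the array median on 5 EOM arrays and 1 TA array. TA 5 (57.1) was above all 6 EOM arrays, TA 6 (41.3) lay among them and the other 4 TA arrays lay below all of them. The difference was 0.67 ± 0.38 (SE, limma adjusted p = 0.365, 95% interval -0.13 to 1.47). It reached 0.96 (limma adjusted p = 0.0481) with EOM 1, TA 3 and TA 5 removed. Its other probe set was below the array median on 12 of 12 arrays and was not tested.

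Sfrp5, the Frizzled-related protein known from adipose tissue, fell in EOM, so that 2 Frizzled-related proteins, Sfrp4 and Sfrp5, moved in opposite directions. On its brighter probe set the EOM signal ran from 13.6 through 61.3 to 94.5 and the TA signal from 85.9 through 339 to 519. TA 2, at 85.9, was the only TA array not above every EOM array, and the other TA arrays were at 287 or more. The EOM mean was 56.5 ± 27.6 and the TA mean 327 ± 142 (SD, n = 6 each), which gave a difference of -2.19 ± 0.39 (SE, limma adjusted p = 0.00114), 4.58-fold lower in EOM. All 12 fits with 1 array left out stayed past the threshold, at -2.51 to -1.96. The dimmer probe set, 1423023_at, was above the array median on only 5 of 12 arrays and pointed the same way without passing (-0.87 ± 0.45, SE, limma adjusted p = 0.301).

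Wif1, which binds Wnt proteins through its WIF domain, had a negative estimate with a wide spread inside TA. The EOM arrays were all dim, from 0.8 through a median of 11.9 to 59.1, with 0 of 6 above their array's median. The TA arrays fell into a bright part of 4 arrays (83.3, 122, 248 and 301.1, on TA 5, 1, 6 and 0) and a dim part of 2 (1.8 on TA 2 and 10.2 on TA 3) within the EOM range. The difference was -1.59 ± 0.65 (SE, limma adjusted p = 0.162, 95% interval -2.95 to -0.23). It passed without TA 2 (-2.06, limma adjusted p = 0.0422) and with EOM 1, TA 3 and TA 5 removed (-2.27, limma adjusted p = 0.0167).

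The 3 Dickkopf genes gave no call in any of the fits run. Dkk3 was nearly level on its brighter probe set, at 117 to 241 in EOM and 174 to 235 in TA, with a difference of -0.14 ± 0.23 (SE, limma adjusted p = 0.844). Its 95% interval, -0.63 to 0.35, was the narrowest among the 13 tested probe sets and leaves out a 2-fold change in either direction. The other Dkk3 probe set gave -0.33 ± 0.36 (SE, limma adjusted p = 0.716), and its 95% interval of -1.08 to 0.42 does not leave out a 2-fold fall in EOM. Dkk2, which can activate or inhibit the canonical branch depending on the cell, ran from 38.6 through 115 to 180 in EOM and from 113 through 164 to 326 in TA. Its groups overlapped, with EOM 1 lowest and TA 2 highest, at a difference of -0.61 ± 0.33 (SE, limma adjusted p = 0.328, 95% interval -1.30 to 0.08). Dkk1 was dim in both, at 2.0 to 49.9 in EOM and 2.8 to 60 in TA and above the array median on 4 of 12 arrays, and its difference of -0.02 ± 0.43 (SE, limma adjusted p = 0.988) had a 95% interval of -0.93 to 0.88. Its second probe set was above the array median on 1 array and was not tested.

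**Figure D2:**
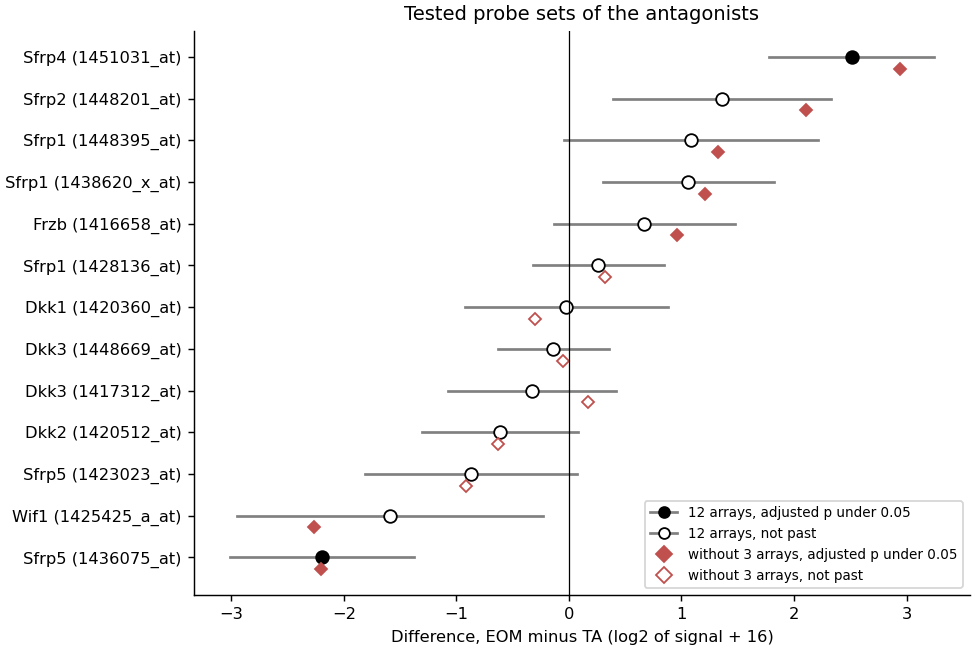
Difference between EOM and TA for the 13 tested probe sets of the antagonists, in log2 units, with circles and bars for the estimate and 95% interval from 12 arrays and diamonds for the estimate without EOM 1, TA 3 and TA 5. Filled symbols passed an adjusted p of 0.05. Sfrp4 at 2.51 and Sfrp5 at -2.19 are the filled circles, and Sfrp2, Frzb, Wif1 and 2 Sfrp1 probe sets are filled only as diamonds.

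Counting each gene by its brightest tested probe set, 1 of 9 antagonists rose and 1 fell, 22.2% against 10.9% of all 13067 genes tested (4.05% higher in EOM and 6.81% lower). With so few members, that share says little about the antagonists as a group, and their median difference was -0.02, beside -0.04 over all genes. Among the 13 tested probe sets 1 (7.69%) had groups that did not overlap, against 5.43% of all tested probe sets. With EOM 1, TA 3 and TA 5 removed, 3 antagonists rose (Sfrp4, Sfrp2 and Frzb) and 2 fell (Sfrp5 and Wif1), while 21.8% of all genes passed in that fit (10.6% higher and 11.2% lower). Without EOM 1 alone, 2 rose (Sfrp4 and Sfrp2) and 1 fell against 20.5% of all genes (10% higher and 10.5% lower).

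**Figure D3:**
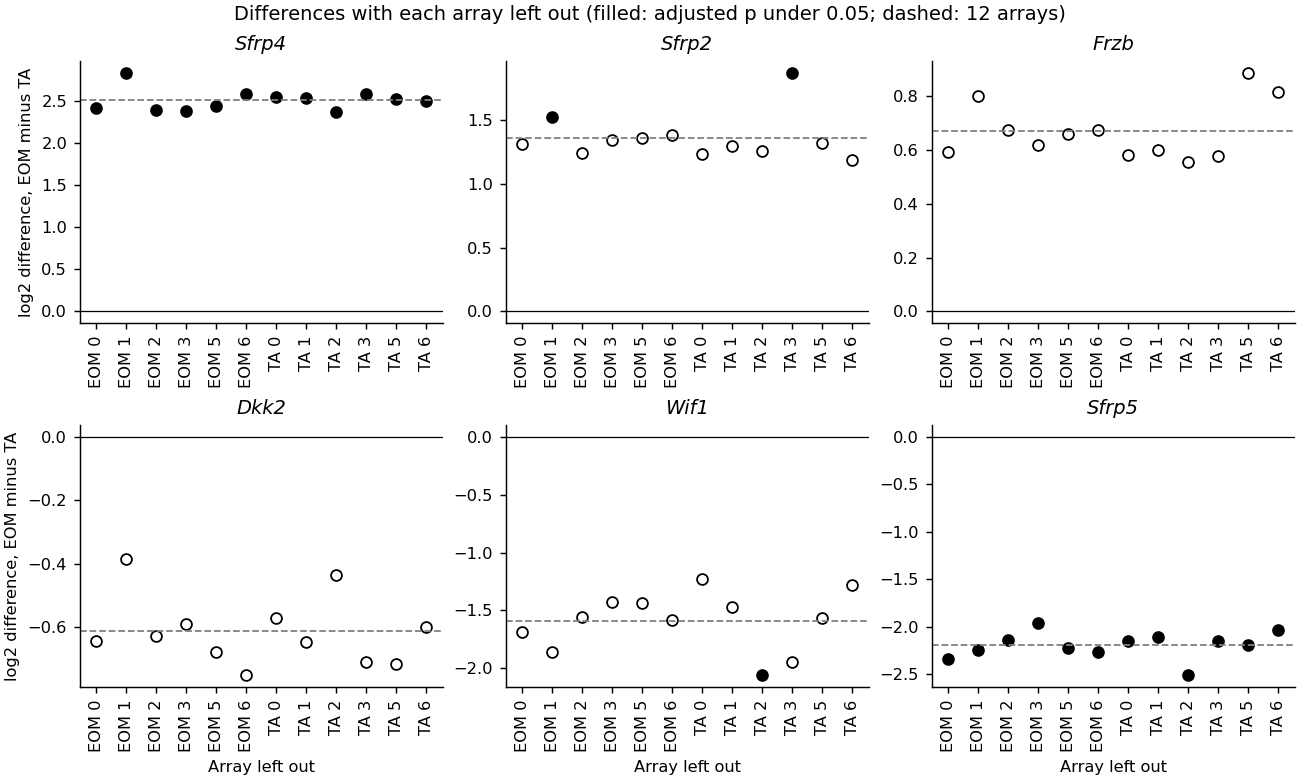
Difference between EOM and TA in log2 units for 6 antagonists (each panel with its own range) when the array named on the horizontal axis is left out, with filled points past an adjusted p of 0.05 and a dashed line at the estimate from 12 arrays. Sfrp4 and Sfrp5 stay filled throughout, Sfrp2 is filled without EOM 1 or TA 3, and Wif1 without TA 2.

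Whether the antagonists responded unlike one another was tested for all 36 pairs, each by the difference between 2 genes on every array, compared between the muscles by exact two-sided permutation over every assignment of the 12 arrays and adjusted over the 36 pairs. Of these, 14 passed, and all but 1 of the 14 involved Sfrp4 or Sfrp5. Of the 14, 10 also passed in all 12 analyses with 1 array left out, 6 of them pairs of Sfrp4. With all arrays Sfrp4 differed from each of the other 8 genes. The gap was widest to Sfrp5, at 4.71 (SD 1.28 in EOM and 0.57 in TA, n = 6, exact permutation p = 0.00216, the smallest the design can give, adjusted 0.013). To Sfrp2 it was 1.15 (exact permutation p = 0.0152, adjusted 0.042, n = 6 per group), a call lost in 8 of 12 analyses with 1 array left out (adjusted exact permutation p = 0.0519 to 0.0925) and with 1 in place of 16 added to the signal (0.0649). The pair of Sfrp4 and Dkk1 was lost without EOM 5 (adjusted exact permutation p = 0.0519) and with 1 added (0.0779). Sfrp5 differed from 6 genes with all arrays, among them Frzb by -2.87 and Sfrp2 by -3.55 (both exact permutation p = 0.00216, adjusted 0.013, n = 6 per group). Sfrp5 and Wif1, the 2 antagonists with the lowest estimates, were 0.60 apart and did not differ by this test (exact permutation p = 0.329, adjusted 0.361, n = 6 per group). The pair of Sfrp5 and Dkk1 (adjusted exact permutation p = 0.0445) was lost in 9 of 12 analyses with 1 array left out (0.0519 to 0.0909). The pair without either was Sfrp2 against Dkk3, at 1.5 (exact permutation p = 0.0152, adjusted 0.042, n = 6 per group), and it was lost in 11 of those 12 (adjusted 0.0693 to 0.0963), passing only without TA 3 (0.00974). The number of pairs past the threshold ranged from 11 to 22 with 1 array left out, with 22 reached without TA 3. Each gene entered by its brightest tested probe set, and the other tested probe sets were not tried in pairs. For Sfrp1 those others gave differences of 1.06 and 1.08 against 0.26, for Sfrp5 -0.87 against -2.19, and for Dkk3 -0.33 against -0.14.

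**Figure D4:**
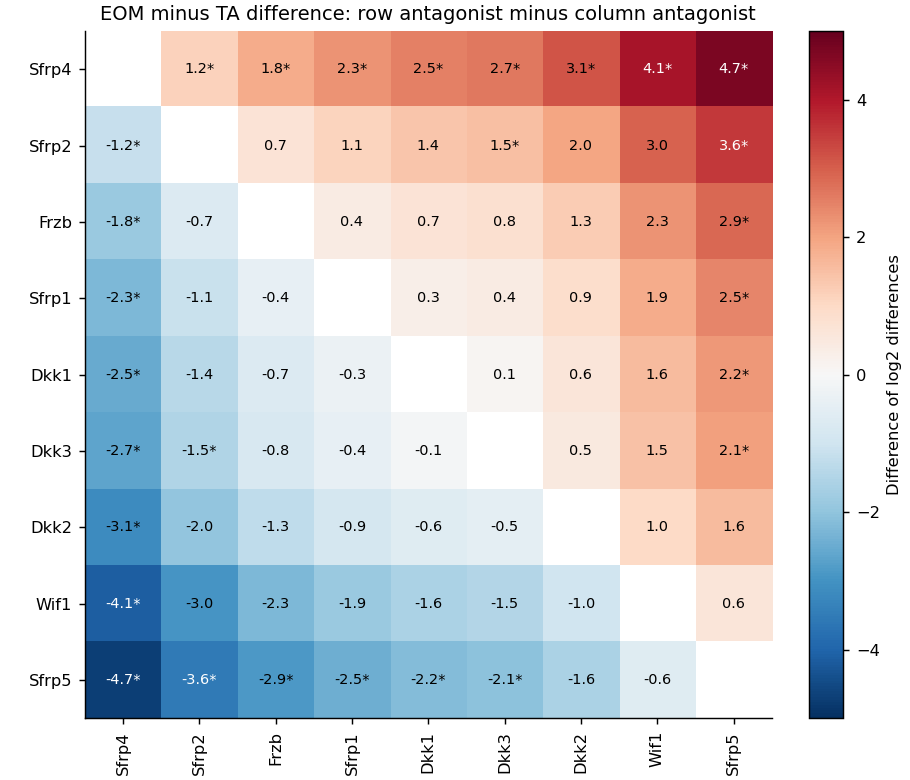
Each cell gives the EOM minus TA difference (log2) of the antagonist in the row minus that of the antagonist in the column, with genes ordered by their difference and a star where the exact permutation p adjusted over 36 pairs was under 0.05. The Sfrp4 row is starred against all 8 other genes, and its cell with Sfrp5 is the largest at 4.71.

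For the 2 antagonists that passed, the genes with the most similar profile over the 12 arrays were listed by Pearson's r as a description. This r takes in both the difference between the muscles and the variation inside each group. Closest to Sfrp4 were Bdh2 (r = 0.98, a dehydrogenase), Col4a6 (r = 0.97, a basement membrane collagen chain) and Scin (r = 0.97, an actin-severing protein). Their r was 0.95, 0.87 and 0.87 once each group's mean was removed, and 0.99, 0.97 and 0.97 without EOM 1. No r was taken with EOM 1 and the group means both removed. Bdh2 rose by 1.69, Col4a6 by 3.26 and Scin by 3.26 in EOM (log2, limma adjusted p = 0.00359, 0.000117 and 0.000231). Closest to Sfrp5 were Plxnd1 (r = 0.94, a semaphorin receptor of vessels), Lama3 (r = 0.93, a laminin chain) and Hspb1 (r = 0.93, a small heat shock protein), at 0.78, 0.74 and 0.76 with the group means removed and 0.94, 0.93 and 0.93 without EOM 1. These fell in EOM by 1.82, 1.88 and 2.54 (log2, limma adjusted p = 0.000289, 0.00184 and 1.36e-05). Genes picked for likeness to a called member over the same arrays tend to differ in its direction, so the p-values of both sets add no support.

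Elsewhere in the pathway the share of genes called moved with EOM 1. Of 82 other Wnt genes on 5 lists, 61 could be tested, and 4 rose and 0 fell in EOM with all arrays (limma), 6.56% against 10.9% of all genes, with a median difference of 0.12. Without EOM 1 13 rose and 4 fell, 27.9% against 20.5% of all genes, and with EOM 1, TA 3 and TA 5 removed the counts were the same, against 21.8%. Wnt11, a mostly non-canonical ligand, was the only 1 of 11 ligands tested that passed, at 428 to 1094 in EOM and 175 to 385 in TA (1.40 ± 0.28, SE, limma adjusted p = 0.00277). Among 18 receptors and co-receptors, 1 rose, the R-spondin receptor Lgr5, itself a beta-catenin target, at 46.1 to 128 against 3.4 to 52.4 (1.71 ± 0.37, SE, limma adjusted p = 0.00594). Lgr5 was dim, above the array median on 7 of 12 arrays, with a TA median of 9.65. Of 7 other secreted modulators tested, Igfbp4, an IGF-binding protein that can also inhibit canonical Wnt signals, rose from 4774 to 8559 in TA to 12258 to 39867 in EOM (1.26 ± 0.30, SE, limma adjusted p = 0.0128). Of 15 secretion factors and transducers, the Dishevelled protein Dvl2 rose (0.90 ± 0.25, SE, limma adjusted p = 0.0346). The Dvl2 call was lost in 8 of 12 fits with 1 array left out. It was also lost with quantile normalization, median centring, no filter on low values or the preparation number as a block. Wnt11, Lgr5 and Igfbp4 passed in all 12, but Igfbp4 was lost with that block.

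Of the proteins that Dickkopf antagonists bind, Lrp6 and Kremen1 were tested and neither passed with all arrays. Lrp5 and Kremen2 were not among the genes tested. Lrp6, the Wnt co-receptor, was at 308 to 550 in EOM and 160 to 463 in TA (0.82 ± 0.27, SE, limma adjusted p = 0.0688), and Kremen1 was at -0.14 ± 0.29 (SE, limma adjusted p = 0.871). Without EOM 1, where 10% of all genes were called higher, 6 receptors passed, all higher in EOM: Lgr5, Lrp6 (0.82, limma adjusted p = 0.037), the Frizzled receptors Fzd1 (0.95), Fzd2 (0.86) and Fzd5 (0.99), and the non-canonical receptor Ror1 (1.44). Of 13 beta-catenin targets tested, only Lgr5 passed with all arrays. Axin2, the feedback inhibitor often used as a readout of the pathway, was at 0.37 ± 0.26 (SE, limma adjusted p = 0.492). Without EOM 1 the targets went both ways, with Myc (1.32) and Cd44 higher besides Lgr5, and Lef1 (-1.55) and the cyclin Ccnd1 (-1.18) lower.

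The makeup of the samples differed between the muscles in markers of several cell types, and since RNA came from pooled cells, a smaller number of cells of a type cannot be told apart from less RNA per cell. Over all 13067 genes tested, 4.05% were called higher in EOM and 6.81% lower with 12 arrays. Of 14 fibroblast and fibro-adipogenic markers 7 rose and 0 fell (median 1.30). Their summed signal was 156233 to 379920 in EOM (median 184921) and 99179 to 223010 in TA (median 140961). Those that did not pass were Lum (1.54), Thy1 (0.82), Dcn (0.16), Col3a1 (0.003), Col1a2 (-0.09), Gsn (-0.14) and Col1a1 (-0.84). Pdgfra, which marks fibro-adipogenic progenitors, rose by 1.18 ± 0.32 (log2, SE, limma adjusted p = 0.0282). Of 15 endothelial markers 13 fell (summed signal 2121 to 3587 in EOM, 13190 to 32528 in TA), as did 8 of 11 pericyte and smooth muscle markers (6194 to 10792 against 20602 to 34679). The tendon list, 7 of 9 lower, had a summed signal of 3616 to 15602 in EOM and 36324 to 118813 in TA, and 7 of 10 leukocyte markers fell (495 to 4633 against 4725 to 13513). Of 6 satellite cell and myofibre markers tested, 1 fell (105 to 660.0 against 191 to 1004), and 0 of 5 Schwann and glial markers passed (625 to 15959 against 1288 to 3206). These last lists are too short for their counts to be told apart from the shares over all genes. No marker tested was at 0 on all arrays. Sfrp4 rose together with 7 of 14 fibroblast markers. Sfrp5 fell together with most vascular, tendon and leukocyte markers. The part of these cells in either result was not tested.

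**Figure D5:**
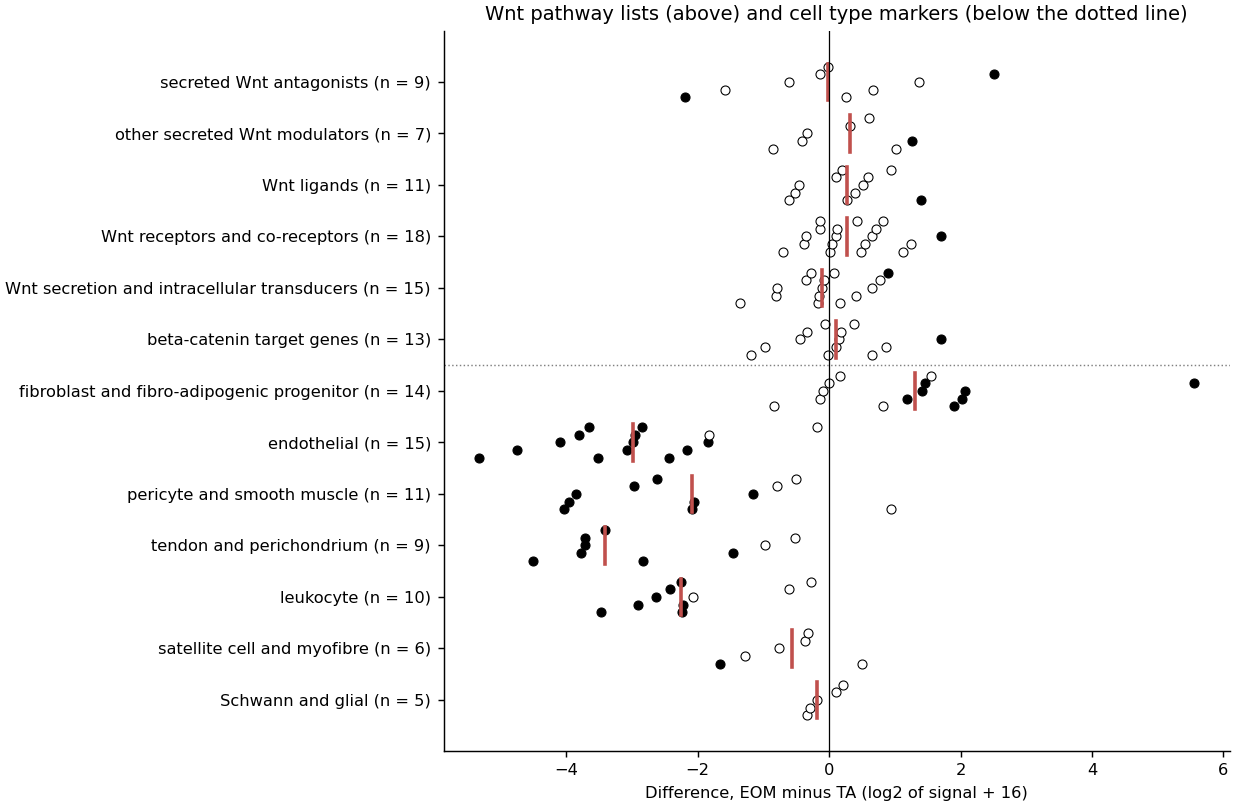
Difference between EOM and TA (log2) of each tested gene on 6 Wnt lists and 7 cell type marker lists, with 1 point per gene, filled where the adjusted p was under 0.05, and a red bar at the list's median. The antagonists spread from -2.19 to 2.51 around a median of -0.02, while the endothelial, pericyte, tendon and leukocyte markers lie mostly below 0 and the fibroblast markers mostly above.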

How the data were processed

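Side population cells of 6 EOM and 6 TA preparations were hybridized to 1 array each after 2 rounds of RNA amplification, per the labels' protocols. The deposited values are MAS5 signal intensities on a linear scale (Microarray Suite version 5.0, per the labels), which the authors scaled so that the mean of every array, trimmed by 2% at each end, was 150. Such scaling makes each signal relative to the rest of its array. Groups and preparation numbers came from the sample titles, and the labels call the preparations independently separated. No 2 columns were identical and 0 columns were left unused. No count stands behind a signal.

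Signals became log2(signal + 16) without further scaling. The 64 control probe sets and the dimmest 40% by mean log2 signal over the 12 arrays were left out, and 27022 probe sets were fitted with limma 3.58.1 in R 4.3.3 (intensity trend, two-sided, Benjamini-Hochberg over all tested probe sets, threshold 0.05). A gene was represented by its tested probe set with the highest mean. Names came from the platform annotation (34958 probe sets with 1 symbol, 932 with several, 9147 with none), and the symbols of all 17 member probe sets matched the current names of assembly GRCm38.p6. Pairs of members were tested by exact permutation (SciPy 1.17.1). The fit was tested on simulated data.

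The members, gene lists, tests and alternatives were chosen with earlier results of these data known (the removal of EOM 1, TA 3 and TA 5 included), so no limma p-value was adjusted over a list alone. The permutation p-values of the pairs were adjusted only over the 36 pairs of these members, and that earlier knowledge limits them. Text names all members, the called genes of each other Wnt list, the receptors and targets that passed without EOM 1 or that the antagonists act on (chosen after their values were seen), and the 3 genes most like each called member. Alternatives were other added constants (1, 64), quantile and median scaling, no filter or a 60% filter, no trend, array weights, the preparation number as a block, averaging the probe sets of a gene, and arrays left out. Cell type markers were those of fibroblasts, endothelium, pericytes and smooth muscle, tendon, leukocytes, satellite cells and myofibres, and Schwann cells. The labels name no paired design, so the main fit and the permutation tests did not treat the numbers as pairs. Same-numbered arrays deviated together in no steady way, which does not settle whether the preparations were paired.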

Additional observations from a re-analysis of the deposited data

Results flagged for a closer look

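In 6 of the 34 sets of 6 arrays examined (17 probe sets in 2 groups, log2 scale), the highest or lowest array stood apart by Dixon's criterion at 95%, where chance gives about 1 in 20. TA 3 was far above the other TA arrays for Sfrp2 (1512) and below them for the Sfrp1 probe set 1448395_at (5.6). EOM 1 was far below the other EOM arrays for that same Sfrp1 probe set (9.8) and above them for the Sfrp1 probe set 1460187_at (61.1). TA 2 was low for Sfrp4 (238) and for the brighter Sfrp5 probe set (85.9).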

How the results depend on the processing

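Sfrp4 and Sfrp5 (brighter probe set) kept their direction and stayed past the threshold in all 22 alternative fits, at 2.37 to 2.94 and -2.54 to -1.62 (limma adjusted p at most 0.00452 and 0.00806). Antagonists higher in EOM, 1 with all arrays, numbered 1 to 2 with 1 array left out, 3 with array weights, 3 without EOM 1, TA 3 and TA 5, and 2 (Sfrp1 joining) when the probe sets of a gene were averaged. Those lower, 1 with all arrays, numbered 1 to 2 with 1 left out, 2 with weights and 2 without the 3 arrays. Probe sets higher and lower over the whole array, 866 and 1359, became 555 and 890 with median centring, 2616 and 2872 with weights, 2256 and 2419 without the 3 arrays, and 568 to 2128 and 1011 to 2233 with 1 left out. Other Wnt genes higher, 4 with all arrays, were 15 with weights, 13 without the 3 arrays and 3 to 13 with 1 left out, the most without EOM 1. Those lower, 0 with all arrays, were 6, 4 and 0 to 4 in these fits, and 1 with the 60% filter. Pairs past the threshold ranged from 11 to 22 with 1 array left out. Same-numbered arrays deviated together in no steady way (r of -0.32 to 0.16, with 1 of 6 EOM arrays closest to its own number). With the replicate block 607 probe sets were higher and 1025 lower, 2 other Wnt genes stayed higher (Wnt11 and Lgr5), and no antagonist's call changed. The sign of Dkk1, near 0 throughout, turned with quantile normalization (0.020) and median centring (0.070) and ran from -0.27 to 0.23 with 1 array left out, and the dimmer Dkk3 probe set turned with weights (0.040) and without the 3 arrays (0.17). The cause of these shifts was not tested. Among single probe sets and lists, 439 other values kept their side, 15 came newly past the threshold, and list counts moved in 38 cases, upward in 24 and downward in 14. Signals near the array median, as for Dkk1 and Frzb, or below it, as for Wif1 in EOM, limit what can be resolved.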

Other observations

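A few arrays were often the extreme of their group. EOM 1 was the lowest EOM array for 5 of the 9 genes (Sfrp2, Sfrp4, Frzb, Dkk2 and Dkk3) and the highest for 3 (Sfrp1, Dkk1 and Wif1). TA 2 was the lowest TA array for 5 (Sfrp4, Sfrp5, Frzb, Dkk3 and Wif1) and the highest for 2 (Dkk1 and Dkk2). Apart from EOM 1, TA 3 and TA 5, it had the highest median signal (43.4), hybridization control mean (6573) and actin 3' to 5' ratio (68.6). Its Gapdh ratio of 14.1 lay within the range of the others, and the part of RNA quality in its values was not tested. For Wif1 the TA preparations ran from 1.8 on TA 2 to 301.1 on TA 0.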
